A study of Homo sapiens with 6 samples.

Results

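Intermediate filament transcripts were examined in 12Z cells, with 9 genes chosen by name out of the 60660 genes in the count files. They were the type I keratins KRT18 and KRT19, the type II keratins KRT7, KRT8, KRT80, KRT81 and KRT86, and the non-keratin filament genes VIM and NES. The rule was the gene symbol alone, with no cut on a measured value, but the genes were chosen with earlier results of these data known. Of the 9 genes, 8 passed the low-count filter and were tested. KRT86 did not pass it, and KRT81 passed it only through its control libraries.

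Intermediate filaments are the tough, rope-like fibres of the cytoskeleton. Keratins build them only as pairs of a type I and a type II chain, and an unpaired chain is usually broken down. Simple epithelia typically pair KRT8 with KRT18 and add KRT19 and KRT7, the last a common marker of glandular and ductal epithelium such as that of the endometrium. VIM (vimentin) forms filaments from a single kind of chain and is typical of mesenchymal cells, and NES (nestin) joins vimentin filaments. The balance of keratins and vimentin is often read in work on the epithelial to mesenchymal transition, which the study followed.

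12Z is an established epithelial cell line from endometriosis. Cells received either a non-targeting control siRNA (3 libraries) or the siRNA LINC01133a at 10 nM, directed against the long noncoding RNA LINC01133 (3 libraries). Both groups were lipofected with RNAiMAX and taken 72 h later. The comparison thus rests on a single line and a single targeting siRNA, and the effect of LINC01133 loss cannot be told apart from any other effect of that oligo. Levels are given as CPM, counts per 1000000 counts of the library on the TMM scale of edgeR, as mean ± SD over 3 libraries, and fold changes as log2 of knockdown over control with a standard error (SE). A gene rose or fell where the quasi-likelihood test of edgeR gave an adjusted p under 0.05 over all 15155 genes tested, and it was called DE (differentially expressed) where the change was also larger than 1.5-fold.

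The libraries held 27742562 to 37551194 counts on genes. LINC01133 fell from 25.4 ± 0.396 to 4.11 ± 0.145 CPM (log2 fold change -2.63), so the target moved as labelled. The epithelial label had thin support outside the keratins. Of 14 epithelial markers 5 were tested. The highest of the 14 was MUC1, at 23.7 ± 2.59 CPM in control and 21 ± 1.66 CPM in knockdown libraries. GRHL2 was at 0 in every library, and ESRP1, CLDN3 and EPCAM had at most 1, 3 and 26 counts. The 8 stromal markers were all tested, and COL1A1 and COL3A1 were abundant. Summed epithelial markers held 36.1 to 43 CPM in control and 25.6 to 30.5 CPM in knockdown libraries, and most of the difference was CDH1 (E-cadherin, the adhesion protein of epithelial junctions), which fell from 12.7 ± 1.13 to 3.16 ± 0.65 CPM. The other 4 tested epithelial markers did not pass the test, with log2 fold changes of 0.31 for EPCAM and ESRP2, -0.18 for MUC1 and -0.70 for CLDN4. Summed mesothelial markers held 538.2 to 551.9 and 314.2 to 341.8 CPM, with 4 of 5 DE lower (6.43% of all tested genes were). Stromal markers held 7295 to 7929 and 7341 to 7445 CPM, a sum carried by COL1A1 and COL3A1, neither of which passed the test. Of the 8 stromal markers 5 fell, among them PDGFRA (-1.52, DE), THY1 (-0.38), PDGFRB (-0.32) and DCN (-0.25), and MME rose (0.82, DE), where 25.0% of all tested genes fell and 23.3% rose. Endothelial markers held 0.64 to 0.801 and 0.707 to 0.93 CPM, and leukocyte markers, mostly CD14, 50 to 56.3 and 26.1 to 28 CPM. The part of these shifts in the results below was not tested, and in bulk RNA fewer cells of a kind and less RNA per cell cannot be told apart.

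The 2 strands of the targeting siRNA are shown because they are the sequence by which the groups differ. They were read from the oligo list of the study, with bases 2 to 8 (the seed, which can pair with other transcripts) in capitals.
LINC01133a guide strand: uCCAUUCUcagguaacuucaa
LINC01133a sense strand: gAAGUUACcugagaauggatt
The matching words, AGAATGG for the guide and GTAACTT for the sense strand, were searched in the sense direction of 1 GENCODE v44 canonical transcript per gene. Neither word was present in any of the 7 keratin transcripts. VIM held the guide word once, in its coding sequence, starting at base 1295 counted from the 5′ end of the transcript, and NES held it once after its stop codon, starting at base 5188. These sites are shown with 8 flanking bases on each side and the match in capitals.
VIM site: gaggcagaAGAATGGtacaaatc
NES site: ctactccaAGAATGGaggctgta
After the stop codon, the guide word was present in 17.1% and the sense word in 13.6% of 12535 tested genes. No such share was taken for coding sequence or whole transcripts, so none stands beside the VIM site or the keratin search. The simple keratins have only 64 (KRT18) to 237 (KRT8) bases after the stop codon. The NES site is followed by an A opposite the first base of the guide, an 8-base match (AGAATGG with A after it) that 5.78% of those genes held after the stop codon.

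The simple-epithelial keratins fell together. KRT19, KRT8, KRT7 and KRT18 dropped to between 54.5% and 68.1% of their control level, KRT19 the furthest. VIM and NES fell less, to 74% and 80.4%, and KRT80 rose to 115.2%. KRT81 is left out of the counts that follow, since it passed the filter only through its control libraries and so had to differ. Among the other 7 tested genes 6 fell and 1 rose, where 25.0% of all tested genes fell and 23.3% rose. As DE, 3 of the 7 were lower and none was higher, where 6.43% of all tested genes were DE lower and 5.30% DE higher. The median log2 fold change was -0.55 for these 7 genes and 0.0032 for all tested genes. The 7 were chosen with earlier results of these data known, so the comparison with all tested genes describes them and is no test. For none of these 7 did the control and knockdown libraries overlap, a separation that 57.3% of all tested genes also had. KRT7 and KRT19 were picked by the study from the RNA-sequencing of these same libraries, so their direction here is not independent evidence. The study followed them up by other assays, and its qRT-PCR and protein assays were not analysed here.

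**Figure D1:**
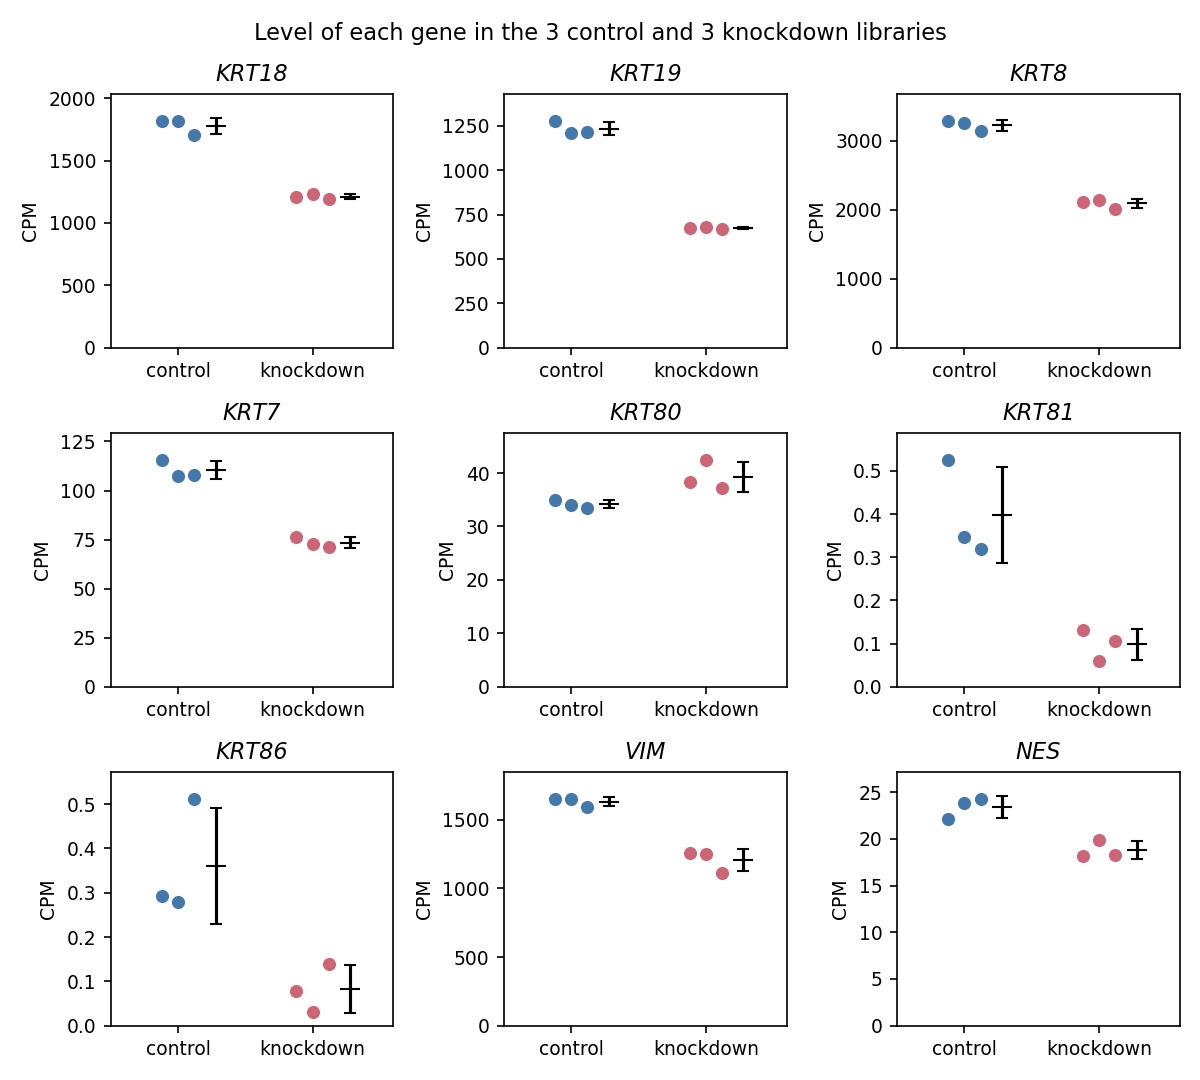
Each panel plots 1 gene, with the level in CPM on a linear axis from 0 and 1 point per library (blue, control; red, knockdown), and bars for the mean ± SD of 3 libraries. The groups are apart in every panel, and KRT80 is the 1 gene with the knockdown libraries on top; KRT81 and KRT86 lie below 0.6 CPM.

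KRT8 was the most abundant member by count. It is the obligate type II partner of simple epithelia, encoded on GRCh38 chr12:52897187-52949954 (minus strand). Its level was 3294, 3258 and 3140 CPM in the control and 2119, 2144 and 2015 CPM in the knockdown libraries. The spread within a group was small next to the gap between groups, and KRT8 fell by 0.63 on the log2 scale (SE 0.0363, 95% confidence interval -0.70 to -0.55, adjusted p = 2.4e-08). Among all genes ranked by CPM it moved from place 11 to place 19. The confidence interval includes the 1.5-fold cutoff (0.585 on the log2 scale), and with library size alone as the scale the log2 fold change was -0.56, which is short of it.

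KRT18, the type I partner of KRT8, lies head to head with it at chr12:52948871-52952906 on the plus strand. It stood at 1813, 1819 and 1701 CPM in control and at 1209, 1234 and 1189 CPM in knockdown libraries. KRT18 fell by 0.55 (SE 0.0369, interval -0.63 to -0.47, adjusted p = 7.8e-08), to 68.1% of control, and was not called DE because the change was below 1.5-fold. Both partners of the main keratin pair fell, one on each side of the cutoff, and the 2 intervals overlapped.

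KRT19, a short type I keratin without the usual tail, lies apart from the others at chr17:41523617-41528308 (minus strand). It was at 1279, 1208 and 1217 CPM in control and at 672.5, 677.6 and 667.1 CPM in knockdown libraries. The 3 knockdown libraries were almost identical, and KRT19 had the lowest log2 fold change of the abundant members, -0.88 (SE 0.0352, interval -0.95 to -0.80, adjusted p = 1.1e-09). Its whole interval lay past the cutoff. By CPM it went from place 56 to place 135 of all genes, and 3.05% of tested genes had a lower log2 fold change, against 6.54% for KRT8 and 7.95% for KRT18.

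KRT7, a type II keratin at chr12:52232520-52252186 (plus strand), was the rarest of the simple keratins by count. It was at 115.7, 107.3 and 108.1 CPM in control and at 76.4, 72.6 and 71.3 CPM in knockdown libraries. KRT7 fell by 0.59 (SE 0.0436, interval -0.68 to -0.49, adjusted p = 2.1e-07), a change that sits on the cutoff. Its DE call was lost without control library 1 (-0.55), without knockdown library 2 (-0.58), without knockdown library 3 (-0.56) and with library size alone (-0.53), while the fall itself passed the test in each of these.

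Together the 4 simple keratins took 0.639%, 0.618% and 0.606% of all control counts and 0.415%, 0.421% and 0.405% of all knockdown counts. VIM took 0.162%, 0.16% and 0.157%, then 0.128%, 0.128% and 0.115%. These are shares of the whole library before any scaling, and in both cases the groups were apart.

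VIM lies at chr10:17228241-17237593 (plus strand). It was at 1650, 1654 and 1595 CPM in control and at 1257, 1253 and 1116 CPM in knockdown libraries, of which library 3 was the lowest. VIM fell by 0.43 (SE 0.0452, interval -0.53 to -0.34, adjusted p = 4.6e-06) and moved from place 33 to place 47 by CPM. The mesenchymal filament gene therefore went down along with the epithelial ones, though less, and it was not DE.

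NES (chr1:156668763-156677407, minus strand) was far rarer, at 22.1, 23.8 and 24.3 CPM in control and 18.2, 19.9 and 18.3 CPM in knockdown libraries. It fell by 0.31 (SE 0.061, adjusted p = 8.5e-04) and was not DE.

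KRT80, a type II keratin of differentiating epithelia, lies at chr12:52168996-52192014 (minus strand). Its level was 35, 34 and 33.5 CPM in control and 38.3, 42.5 and 37.2 CPM in knockdown libraries. It rose by a log2 fold change of 0.20 (SE 0.0541, interval 0.087 to 0.32, adjusted p = 0.0069), the one member in this direction, and was not DE.

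KRT81 (chr12:52285913-52291534, minus strand) and KRT86 (chr12:52249300-52309163, plus strand) are hair-type keratins of closely similar sequence, so reads could be split between them or dropped by the counting. KRT81 had 18, 10 and 10 counts in control and 5, 2 and 3 in knockdown libraries. KRT86 had 10, 8 and 16 counts in control and 3, 1 and 4 in knockdown libraries. Both were near the limit of the depth and lower in each knockdown library. The ratio of summed counts, knockdown to control, was taken relative to the library totals on the TMM scale. It was 0.247 for KRT81 (exact 95% interval 0.11 to 0.506) and 0.221 for KRT86 (0.0884 to 0.487), intervals that cover counting error only. The fitted log2 fold change of KRT81 was -1.97 (SE 0.435, adjusted p = 0.0021). That p is no independent support, since KRT81 passed the low-count filter only through its control libraries. Without the low-count filter, edgeR gave KRT86 a log2 fold change of -2.12 (adjusted p = 8.0e-04), and DESeq2 gave -2.16 (adjusted p = 0.022).

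Levels of different genes were compared per kb of merged exons. In control cells the order was KRT18 (579.2 ± 21.8 CPM per kb), KRT19 (528.5 ± 16.4), KRT8 (469.5 ± 11.7), VIM (315.5 ± 6.41), KRT7 (27.6 ± 1.16), KRT80 (7.83 ± 0.167), NES (4.2 ± 0.206), KRT81 (0.206 ± 0.058) and KRT86 (0.149 ± 0.0541). KRT81 and KRT86 were the one pair of neighbours whose libraries overlapped. In knockdown cells the order kept KRT18 first (394.6 ± 7.4 CPM per kb), put KRT8 (304.1 ± 9.99) ahead of KRT19 (287.8 ± 2.25), and left VIM (233.5 ± 15.5) and the rest in place.

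The order among the abundant keratins depended on the length used. The merged exons of KRT8 span 6881 bases over 18 transcripts, against 1784 bases for its canonical transcript. With canonical lengths, an alternative chosen after seeing the data, control cells had KRT8 first (1811 ± 45.2 CPM per kb), followed by KRT18 (1258 ± 47.3), KRT19 (888.2 ± 27.6) and VIM (758.2 ± 15.4). In knockdown cells, VIM (561.2 ± 37.3) then stood above KRT19 (483.7 ± 3.78). KRT19 went down by 1 place in knockdown cells with either length.

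**Figure D2:**
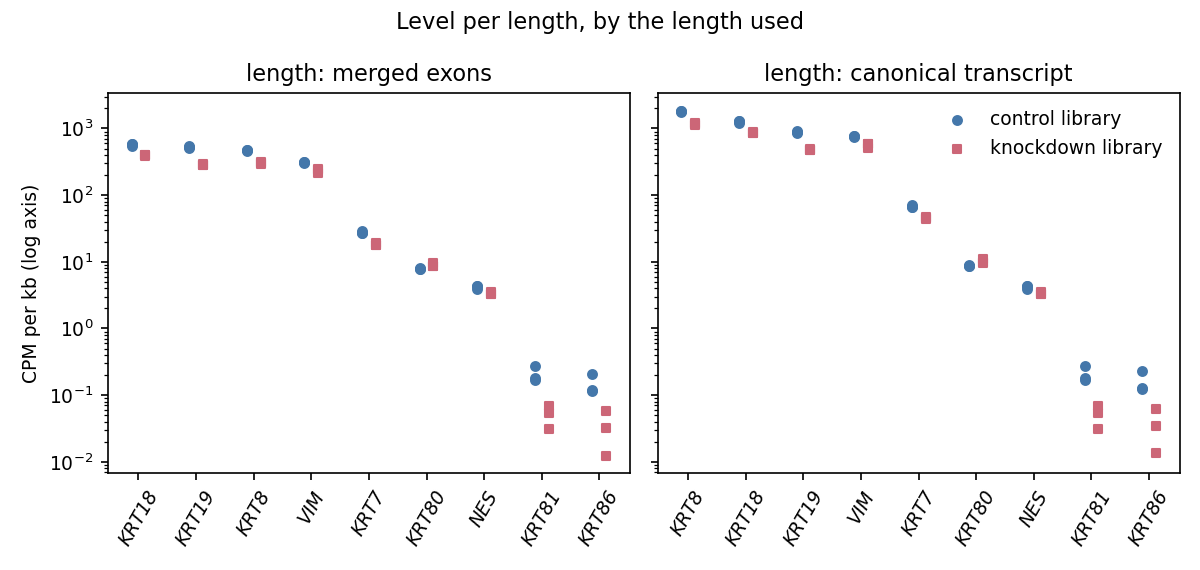
Level per length (CPM per kb, log axis) of each member in each control (blue circle) and knockdown (red square) library, with merged exons at left and canonical transcripts at right, ordered by the control mean. KRT8 is the third gene at left and the first at right, and the 4 most abundant genes are far above KRT7 in both.

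Ratios within a library do not depend on how libraries are scaled, and they show whether partners kept their balance. Ratios between single genes used counts with no length scaling, and only the ratios with sums were taken per kb. The size of a ratio between single genes is therefore not a ratio of the levels per kb above. A fixed gene length cancels in its log2 difference between groups. For each of 13 ratios the log2 values were compared by an exact two-sided permutation test, which with 3 against 3 libraries cannot give a p under 0.1. No ratio could therefore pass a threshold of 0.05, and every ratio whose groups did not overlap had an exact permutation p of 0.1 (0.13 after adjustment over the 13 ratios).

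Among KRT8, KRT18 and KRT7 no ratio shifted by more than 0.073 on the log2 scale. KRT18/KRT8 was 0.551, 0.558 and 0.542 in control and 0.571, 0.576 and 0.59 in knockdown libraries, a difference of 0.073 on the log2 scale (SE 0.0194) without overlap. KRT7/KRT8 was 0.0351, 0.033 and 0.0344 in control and 0.0361, 0.0338 and 0.0354 in knockdown libraries, which overlapped (difference 0.039, SE 0.0385, exact permutation p = 0.4). KRT18/KRT7 overlapped too (difference 0.034, SE 0.0481, exact permutation p = 0.5).

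KRT19 was lower relative to every other simple keratin in each knockdown library. KRT19/KRT18 was 0.705, 0.664 and 0.716 in control and 0.556, 0.549 and 0.561 in knockdown libraries (log2 difference -0.32, SE 0.0342). KRT19/KRT8 was 0.388, 0.371 and 0.388, then 0.317, 0.316 and 0.331 (-0.25, SE 0.0305), and KRT19/KRT7 was 11, 11.3 and 11.3, then 8.8, 9.34 and 9.36 (-0.29, SE 0.0304). In all 3 ratios the groups were apart by more than the spread within either group.

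The summed type I over summed type II level (KRT18 and KRT19 over KRT7 and KRT8, each per kb of merged exons) was 2.24, 2.22 and 2.22 in control and 2.08, 2.1 and 2.17 in knockdown libraries. The log2 difference was -0.074 (SE 0.0177) with no overlap between groups. Counts that ignore strand gave -0.14, and canonical lengths -0.053. The size of the ratio itself depended on the length used and does not show an excess of type I chains. With canonical lengths, KRT8 (1811 CPM per kb) stood above KRT18 (1258) and KRT19 (888.2) in control cells.

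Each simple keratin was lower relative to VIM in the knockdown libraries. KRT19/VIM was 0.775, 0.73 and 0.763 in control and 0.535, 0.541 and 0.598 in knockdown libraries (log2 difference -0.44, SE 0.0569). KRT8/VIM was 2, 1.97 and 1.97, then 1.69, 1.71 and 1.81 (-0.19, SE 0.0306). The differences were -0.15 for KRT7/VIM (SE 0.0521) and -0.12 for KRT18/VIM (SE 0.0468), the latter with a gap between groups of almost nothing (lowest control 0.093 and highest knockdown 0.092 on the log2 scale). The summed simple keratins per kb stood at 5.16, 5.04 and 5.06 times the VIM level in control and at 4.16, 4.22 and 4.56 times in knockdown libraries (-0.24, SE 0.043). NES/VIM overlapped between groups (0.12, SE 0.0754, exact permutation p = 0.2).

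**Figure D3:**
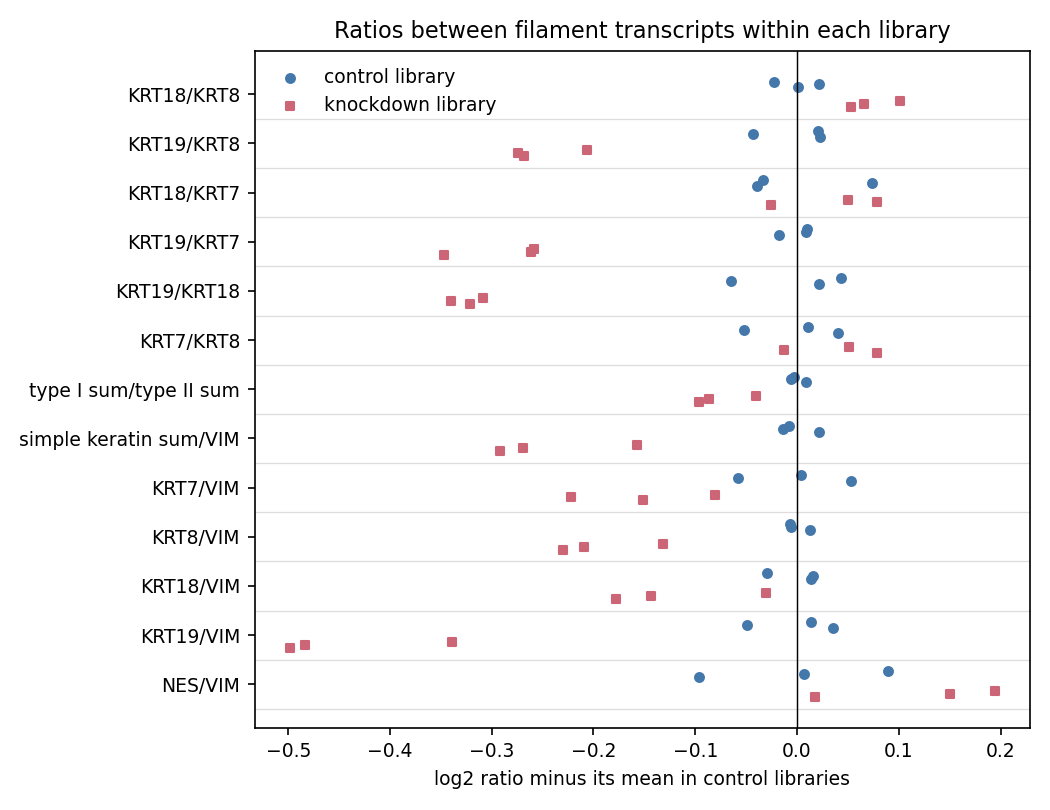
Each row is a ratio between 2 members or sums, and the horizontal axis is its log2 value minus the control mean, with 1 blue circle per control and 1 red square per knockdown library. The ratios with KRT19 on top lie furthest to the left, with KRT19/VIM at a mean of -0.44, while KRT18/KRT7, KRT7/KRT8 and NES/VIM overlap.

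Several of these genes share exon sequence with a gene on the other strand, and the counts used here are those of 1 strand. In the v44 annotation, 525 exon bases of KRT18 and KRT8 overlap in opposite directions, 17.1% of the merged exons of KRT18. VIM shares 656 bases (12.7%) with the antisense RNA VIM-AS1 and 619 bases (12%) with another long noncoding RNA of the opposite strand. KRT7 shares 282 bases (7.05%) with KRT7-AS. Counts that ignored strand kept 50.9% to 54% of the stranded count for KRT18, 36.2% to 40% for VIM and 73.8% to 75.9% for KRT7, while KRT8, KRT19, KRT80 and NES kept 100% to 101%.

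With strand ignored, the log2 fold change of KRT18 was -0.591, past the cutoff. The differences of KRT18/KRT8 (0.042, exact permutation p = 0.5), KRT8/VIM (-0.11, exact permutation p = 0.2), KRT18/VIM (-0.07, exact permutation p = 0.3) and KRT7/VIM (-0.092, exact permutation p = 0.3) came closer to 0 and their groups overlapped. The groups of KRT19/KRT18, KRT19/KRT8, KRT19/KRT7 and KRT19/VIM stayed apart with strand ignored.

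Processed pseudogenes of the simple keratins are a further caution, since reads with more than 1 place in the genome were dropped. KRT8 had 51 listed copies, of which 31 had a count, and these summed to at most 1.33% of the KRT8 count in any library. For KRT18 and KRT19 the sums stayed at or below 0.353% and 0.0315%. KRT8P3, a KRT8 copy, fell from 30.1 ± 1.74 to 18.5 ± 1.38 CPM (log2 fold change -0.70, adjusted p = 1.8e-06), a fall like that of KRT8, and reads of the 2 cannot be separated with certainty.

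Apart from KRT10, keratins other than the members were low or at 0. Of the 47 other keratins in the lists, 28 had no count in any library and 3 were tested. KRT17, a type I keratin of basal and stressed epithelium, had 6, 11 and 4 counts in control and 32, 17 and 12 in knockdown libraries, the opposite direction to KRT18 and KRT19. It rose by a log2 fold change of 1.43 (SE 0.414, adjusted p = 0.012) and was DE, but it passed the filter through its knockdown libraries, and the call was lost without control library 1, control library 3 or knockdown library 1 (log2 fold change 1.06 to 1.96 over the left-out libraries). KRT10, a type I keratin of differentiated epidermis, stood at 15.1 ± 0.475 CPM in control and 17.1 ± 2.85 CPM in knockdown libraries. Neither KRT10 (0.18, adjusted p = 0.14) nor KRT15, a basal type I keratin (0.35, adjusted p = 0.083), passed the test.

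Beside VIM and NES, 13 non-keratin filament genes were listed and 6 of them tested. Of the 6, 3 fell, none rose and none was DE, with a median log2 fold change of -0.22 (25.0% of all tested genes fell and 23.3% rose). These were SYNM (synemin, a partner of vimentin), LMNA and LMNB2 (lamins of the nuclear envelope). SYNM fell from 30.2 ± 2.21 to 23.8 ± 0.929 CPM (-0.34, adjusted p = 4.5e-04). LMNA fell from 546.4 ± 12.8 to 454.0 ± 10.7 CPM (-0.27, adjusted p = 4.1e-05), and LMNB2 from 435.2 ± 9.89 to 385.9 ± 7.21 CPM (-0.17, adjusted p = 0.0012). LMNB1, another lamin, had 0.079 (adjusted p = 0.092), INA, a neuronal filament gene, -0.14 (adjusted p = 0.17) and BFSP1, a lens filament gene, -0.49 (adjusted p = 0.14).

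Of 14 listed genes that tie filaments to junctions and to other fibres, 12 were tested, 3 fell and 3 rose, with a median log2 fold change of 0.027, and none was DE. These shares are close to those of all tested genes (25.0% fell and 23.3% rose). PKP2 (plakophilin 2, a desmosome protein) fell from 242.6 ± 0.238 to 165.7 ± 4.87 CPM (-0.55, adjusted p = 6.7e-08), which was close to the falls of KRT18 and KRT7. PPL (periplakin) fell by 0.18 (adjusted p = 0.0032). PKP4, a plakophilin relative, rose by 0.29 (adjusted p = 2.0e-05) and TCHP (trichoplein, a keratin-binding protein) by 0.31 (adjusted p = 1.4e-04).

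The calls of DST and EPPK1 depended on single libraries. DST (dystonin, a plakin) stood at 992.9 CPM in control library 2 against 505.2 and 466.7 CPM in the other control libraries, and its fall (-0.57, adjusted p = 0.038) became -0.14 (adjusted p = 0.059) without control library 2 and was also lost without any 1 knockdown library. EPPK1 (epiplakin) rose by 0.39 (adjusted p = 0.024), a call lost without control library 1, knockdown library 1 or knockdown library 3. Control library 2 was also the highest control library for the plakins MACF1 (643.0 CPM against 402.7 and 394.4) and PLEC (652.4 against 538.8 and 553.3). It was not the highest for EVPL or EPPK1. Without control library 2, the log2 fold change of MACF1 went from -0.29 to -0.022. DSP (desmoplakin, the main anchor of keratins at desmosomes) had 4 to 7 counts per library and was not tested.

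Of the 5 listed chaperones that act on filaments, 4 were tested, 2 rose and 1 fell, with a median log2 fold change of 0.30 (23.3% of all tested genes rose and 25.0% fell). HSPB1 (a small heat shock protein that binds keratin and vimentin filaments) stood at 96.5, 85.4 and 87.7 CPM in control and at 174.6, 180.1 and 162.7 CPM in knockdown libraries. It rose by a log2 fold change of 0.94 (SE 0.0516, adjusted p = 1.5e-08) to 191.9% of control and was DE. HSPB8, a related small heat shock protein, rose from 23.6 ± 0.874 to 34 ± 2.4 CPM (0.53, adjusted p = 8.5e-06). HSPA8, the constitutive HSC70, fell from 1834 ± 72 to 1577 ± 36.5 CPM (-0.22, adjusted p = 3.5e-04), and DNAJB6, a co-chaperone linked to keratin 18, had 0.081 (adjusted p = 0.067). CRYAB, the one not tested, had 4 to 15 counts per library.

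**Figure D4:**
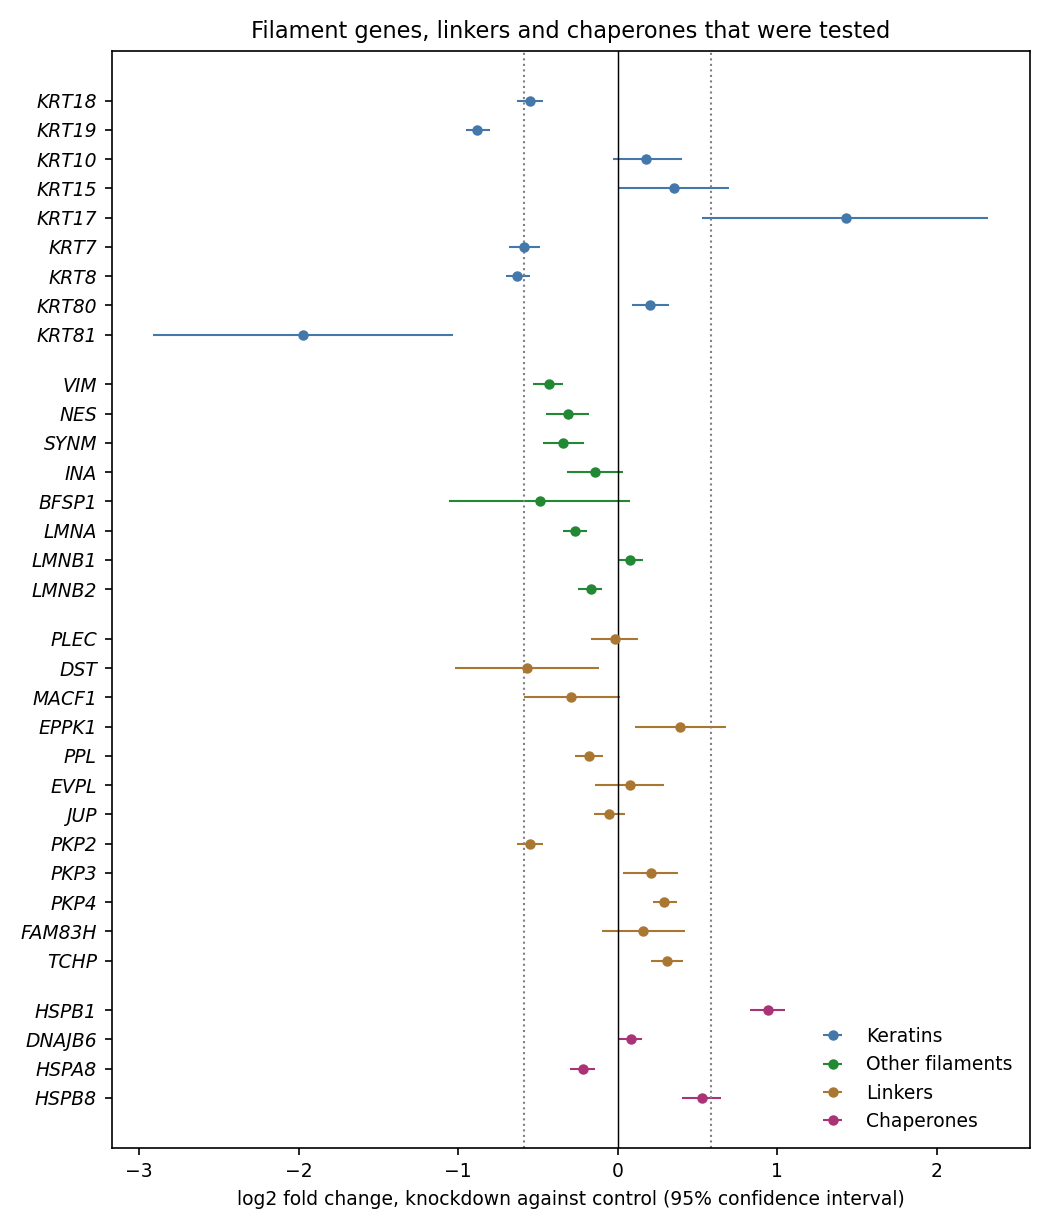
Log2 fold change of knockdown against control with its 95% confidence interval, for every tested keratin, other filament gene, linker and chaperone of the lists, and dotted lines at 1.5-fold either way. KRT19 (-0.88) and HSPB1 (0.94) lie past the lines with their whole intervals, whereas KRT7, KRT8, KRT18 and PKP2 sit on or next to the line, and KRT17 and KRT81 have wide intervals.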

How the data were processed

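RNA-sequencing was done on poly-A RNA of 12Z cells, with 3 control and 3 knockdown libraries described by the study as biological replicates and grouped by their labels. The authors aligned reads with STAR 2.7.6a to GRCh38.p13 and deposited STAR counts of read pairs per GENCODE v36 gene, with no normalization. The column opposite to read 1 was used, as it held 94% of stranded counts. Reads outside genes or shared between genes (8.5% to 9.44%) were left out. Of 60660 gene IDs, 60463 matched a symbol.

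Genes were filtered with filterByExpr (minimum count 10, a cutoff of 0.31 CPM here), scaled by TMM (factors 0.968 to 1.03) and compared with the quasi-likelihood test of edgeR 4.0.16 in R 4.3.3, with Benjamini-Hochberg adjustment over 15155 genes. DE used the cutoffs of the study. The script was tested on simulated data. With 3 libraries a group, the SD and SE carry the precision. The p-values test a difference between the groups against the variation between these libraries and do not measure that variation. Coordinates, exon lengths and transcripts came from GENCODE v44 on GRCh38. Alternatives were DESeq2 1.42.0, other scalings and filters, the unstranded column, glmTreat, a replicate block, other lengths and each library left out.

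The members and gene lists were chosen with earlier results of these data known. Named genes were the members, the target, every other tested keratin, all tested genes of the list of other filaments and, from each other list, up to 3 lowest and 3 highest log2 fold changes with an adjusted p under 0.05. Genes overlapping or copying a member were added as a caution, and marker, DSP, CRYAB, MACF1, PLEC and EVPL values after they were seen.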

Additional observations from a re-analysis of the deposited data

How the results depend on the processing

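Over the alternatives, no log2 fold change of a tested member and no ratio changed sign. Each tested member other than KRT81 kept an adjusted p under 0.05 wherever it was tested against no change. KRT81 did so too, but its p-values after the low-count filter are no support, since it passed that filter only through its control libraries. The count of members called DE varied with the 1.5-fold cutoff, on which KRT7, KRT8 and KRT18 sit, and with the low-count filter, which decides whether KRT81 and KRT86 are tested. In the main fit it was 4, or 3 of 7 without KRT81, which passed the filter only through its control libraries. Of all tested genes 6.43% were DE lower and 5.30% DE higher in that fit. The other counts also include KRT81 wherever it was tested. They were 2 with library size alone and 2 with at least 10 counts required in every library (KRT81 then untested). The count was 2 with glmTreat, which tests against a fold change of 1.5. It was 5 with DESeq2 and 5 without the filter (KRT86 then tested), and 5 with the unstranded column. With 1 library left out of the main fit, the count was 3 to 4. KRT7 (-0.59) missed DE with library size alone (-0.53), at least 10 counts in every library (-0.584) and glmTreat (-0.587, adjusted p = 1), and ranged from -0.61 to -0.55 with 1 library left out. KRT8 missed it with library size alone (-0.56) and glmTreat (-0.63, adjusted p = 0.61), and KRT18 reached it with the unstranded column (-0.591). Over all genes 1778 were DE, 578 with glmTreat. With library size alone 55.9% of DE genes were higher in knockdown, against 45.2% with TMM, and the median log2 fold change was 0.065.

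No pairing by replicate number was visible. Same-numbered libraries had correlations of -0.015, 0.00488 and 0.057 in their deviations from the group means, and other pairs -0.0664 to 0.0714. With 3 libraries a group, such correlations cannot show whether libraries of the same number were handled together. With the replicate block 1747 genes and 4 members, KRT81 among them, were DE, and no member's call changed (KRT19 -0.88, KRT8 -0.63, KRT7 -0.588, KRT18 -0.55, VIM -0.44, NES -0.31, KRT80 0.20, KRT81 -1.98). Depth limits KRT81, KRT86 and KRT17, at 1 to 32 counts per library.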
